A study of Mus musculus with 16 samples.

Results

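The proteasome genes described here were all genes whose single symbol on the array matched the names Psma to Psmg followed by a number, each taken at its probe set with the highest mean. There were 50 such genes among the 19938 genes tested. By role they were 3 immune catalytic subunits, 2 immune activator subunits, 3 constitutive catalytic subunits, 4 other beta subunits, 1 thymic beta subunit, 8 alpha subunits, 6 ATPases and 11 other subunits of the 19S particle, 3 further activators or inhibitors and 7 assembly chaperones. The last 2, Psmc3ip (a meiotic recombination cofactor) and Psme3ip1 (a binding partner of Psme3), match by name and are not subunits.

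The proteasome is a barrel of alpha and beta rings, the 20S core, that cuts ubiquitin-tagged proteins fed to it by the 19S cap. Its cutting activity sits in the beta subunits Psmb5, Psmb6 and Psmb7. Interferon gamma induces replacements for them, Psmb8, Psmb9 and Psmb10, together with the activator caps Psme1 and Psme2. The resulting immunoproteasome favours peptides that fit class I MHC molecules, and Psmb8 and Psmb9 lie inside the class II region of the MHC, beside the peptide transporter genes Tap1 and Tap2.

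The study asked how the class II transactivator Ciita shapes the transcripts of classical dendritic cells. CD24+ and CD172a+ dendritic cells were sorted from 8 mice of strain B6 (each giving 1 array of each subset) and hybridized to 16 Affymetrix Mouse Gene 1.0 ST arrays. Bone marrow of 2 Ciita -/- mice (KO) and 2 Ciita +/+ mice (WT) was grown for 9 days in 5% Flt3l, a dendritic cell growth factor, and the cells were activated with gamma interferon and then for 4 hours with LPS, a bacterial Toll-like receptor ligand. The series text gives 16 hours of gamma interferon and the growth protocol 22 hours. The spleens of 2 other Ciita -/- mice and 2 other Ciita +/+ mice gave untreated cells. Every mouse also carried 1 GFP allele of Zbtb46 (Zbtb46 GFP/+), a reporter of classical dendritic cells that takes the place of 1 Zbtb46 copy, so no group has both copies. The 8 groups (source, subset and genotype) had 2 arrays each, and this number limits the precision of every value. Culture and activation come together, so the effect of either cannot be told apart from the other.

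Values are log2 signals minus the median of the array over the genes tested, called levels below. Medians of the deposited log2 signals ran from 6.85 to 6.92 in the culture arrays and from 7.29 to 7.32 in the spleen arrays, so source and array set cannot be told apart in any culture value set against spleen. The subset labels held against their markers in spleen: Xcr1 and Clec9a, receptors of the CD24+ type, were higher in CD24+ cells by 5.39 and 4.89, and Clec4a4 and Sirpa, of the CD172a+ type, were lower by 5.88 and 3.91 on the log2 scale. Over the whole lists in spleen, 8 of 9 genes of the CD24+ type were higher and 7 of 8 of the CD172a+ type were lower in CD24+ cells. In culture the same markers separated the subsets, but the lists were mixed. There, 7 of the 9 were higher and 1 was lower, and 4 of the 8 were lower and 1 was higher. Beside these, 11.6% of all genes were higher and 12.3% lower in cultured CD24+ cells. Cultured CD172a+ cells also had lower levels of several spleen markers: Cd209a stood between -0.67 and -0.23 in their 4 arrays, against 4.31 to 4.51 in spleen CD172a+ cells. Itgax (CD11c) stood between 0.89 and 1.74 in those 4 arrays, against 5.54 to 5.69 in spleen CD172a+ cells. Over the whole lists in CD172a+ cells, 7 of 8 genes of the CD172a+ type were lower in culture than in spleen and 0 higher. Of 5 genes shared by classical dendritic cells, 4 were lower and 1 was higher. Of 9 genes of the CD24+ type, 5 were higher and 2 lower. Of all genes, 49.4% were higher and 29.5% lower in that comparison. Among neutrophil genes, 3 of 9 were higher in spleen CD24+ cells, with the mean level of the list at 1.29 in KO replicate 2 and between -0.91 and -0.06 in the other spleen CD24+ arrays, against -1.06 to -0.63 in spleen CD172a+ arrays. Among macrophage genes, 4 of 6 were lower there, with mean levels of -0.03 to 0.49 in spleen CD24+ arrays and 1.38 to 2.35 in spleen CD172a+ arrays. In culture the macrophage list stood at 0.01 to 0.10 in CD24+ arrays and at 0.23 to 0.37 in CD172a+ arrays, and the neutrophil list between -1.14 and -0.98 in all 8. Of plasmacytoid dendritic cell genes 3 of 5 were higher in spleen CD24+ cells and 1 was lower (largest difference 2.34), of T and NK cell genes 2 of 6 were higher, of B and plasma cell genes 2 of 6 were higher and 1 was lower, and of erythroid genes 1 of 2 was higher (1.54). Of all genes, 13.8% were higher and 14.3% lower in spleen CD24+ cells, and lists this short are hard to set apart from those shares. The part of such other cell types in the subset and source values below was not tested. In sorted bulk cells, fewer cells of a type and less RNA per cell cannot be told apart.

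The 5 immune genes lie close to each other in 2 places. Psmb9 and Psmb8 are on chromosome 17, in the order H2-DMa, H2-DMb2, H2-DMb1, Psmb9, Tap1, Psmb8, Tap2, H2-Ob, H2-Ab1, H2-Aa. Psme1 and Psme2 are on chromosome 14 with only Emc9 between them and the interferon factor gene Irf9 nearby, and Psmb10 is on chromosome 8. The upstream sequences of Psmb8 and Psmb9 are shown because these genes sit among class II genes that depend on Ciita, and that of Psmb5 because Psmb8 takes its place in the barrel. They are the 250 bases before the transcript start in RefSeq (GRCm38.p6), read 5′ to 3′ on the strand of the gene, at chr17:34197945-34198194 (plus strand) for Psmb8, chr17:34187331-34187580 (minus strand) for Psmb9 and chr14:54617996-54618245 (minus strand) for Psmb5. Capitals mark a match to a motif searched on both strands.
Psmb8: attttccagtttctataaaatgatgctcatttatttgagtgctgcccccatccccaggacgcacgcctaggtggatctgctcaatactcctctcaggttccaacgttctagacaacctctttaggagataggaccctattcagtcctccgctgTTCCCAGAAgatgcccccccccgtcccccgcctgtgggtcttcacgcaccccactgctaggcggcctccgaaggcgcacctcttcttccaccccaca
Psmb9: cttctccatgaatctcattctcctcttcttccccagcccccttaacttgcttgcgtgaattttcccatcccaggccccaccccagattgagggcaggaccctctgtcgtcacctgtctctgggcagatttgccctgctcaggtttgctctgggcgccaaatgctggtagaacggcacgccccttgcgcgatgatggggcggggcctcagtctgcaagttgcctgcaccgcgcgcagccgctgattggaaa
Psmb5: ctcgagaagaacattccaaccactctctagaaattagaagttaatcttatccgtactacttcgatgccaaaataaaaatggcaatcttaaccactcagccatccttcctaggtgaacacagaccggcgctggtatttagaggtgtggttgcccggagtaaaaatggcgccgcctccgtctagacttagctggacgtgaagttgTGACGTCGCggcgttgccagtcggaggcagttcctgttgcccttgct

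The capitals in Psmb8 are a match to TTCNNNGAA, the STAT binding motif called GAS, from position -97 to position -89 relative to the start. Those in Psmb5 are a match to TGACNNNGC, the antioxidant response element, from position -47 to position -39. RefSeq held windows of 300 bases around the start, 250 before and 50 after, for 42 of the 50 genes, in 46 windows. GAS was found in 1 of 6 immune windows (Psmb8), in 2 of 40 other proteasome windows (Psmd2 and Psmg1) and in 8.3% of all 32851 windows. The interferon motif called ISRE, searched as GAAA, any 2 bases and GAAA again, was found in 1 immune window (Psme1, from 9 to 18 bases after the start), in 4 other windows (Psmb3, Psmd4, Psmd9 and Psmg4) and in 3.44% of all windows. The antioxidant response element was found in no immune window, in 6 of 40 others (Psmb5, Psmb6, Psmc6, Psmd12, Psmd9 and Psme4) and in 12.4% of all windows. A motif of NF-kB, 10 fixed bases long, was in none of the members' windows and in 0.155% of all. These counts describe letters in short windows and are too few to compare.

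Ciita itself stood at 2.81 and 1.20 in cultured CD24+ KO arrays, against 3.57 and 3.92 in WT arrays, and at 1.41 and 0.20 in cultured CD172a+ KO arrays, against 3.24 and 3.66 in WT arrays. In spleen its KO arrays (3.51 to 3.91) overlapped the WT arrays (3.58 to 4.03), and whether its probe set lies in the deleted part is not given. None of its changes passed (smallest adjusted p = 0.115, limma), so the labels rest on class II genes such as H2-Ab1, which fell by 2.42, 3.89, 1.91 and 2.54 in KO cells (cultured CD24+, cultured CD172a+, spleen CD24+ and spleen CD172a+).

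Loss of Ciita left the proteasome genes without a called change. In limma with Benjamini-Hochberg adjustment, 0 of 50 passed in cultured CD24+ cells (background over all genes 0.0903%), 0 in cultured CD172a+ cells (0.0552%), 0 in spleen CD24+ cells (0.0602%) and 0 in spleen CD172a+ cells (0.0802%). At an unadjusted p under 0.05 there were 7, 1, 0 and 0 members in the same order, beside 7.58%, 6.25%, 4.61% and 5.46% of all genes. With the 2 arrays of each mouse averaged, 0 passed in culture (background 0.0602%) and 0 in spleen (0.0702%), with 1 member and 0 members at an unadjusted p under 0.05, beside 7.75% and 4.24% of all genes.

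Psmb8 and Psmb9 showed this among neighbours that did change. In cultured CD24+ cells, Psmb8 stood at 6.10 and 6.10 in KO arrays and at 6.06 and 6.08 in WT arrays. In cultured CD172a+ cells it stood at 6.05 and 6.06 in KO arrays and at 6.03 and 6.08 in WT arrays. The KO and WT levels lay within a few hundredths of each other. The KO minus WT change of Psmb8 was 0.03 in cultured CD24+ cells (95% interval -0.13 to 0.19) and 0.00 in cultured CD172a+ cells (-0.16 to 0.17). In spleen it was 0.03 (-0.13 to 0.19) in CD24+ cells and -0.00 (-0.16 to 0.16) in CD172a+ cells. For Psmb9 the changes were 0.04, 0.06, 0.07 and -0.12 in the same order of groups, and the last had a 95% interval of -0.34 to 0.10. H2-DMa, a peptide exchange factor of class II loading on the one side of the pair, fell by 1.03 in cultured CD24+ KO cells and by 3.26 in cultured CD172a+ KO cells (adjusted p = 0.00120 and 2.54e-08, limma). H2-Ob, on the other side, fell by 3.19 and 4.06 (adjusted p = 5.36e-04 and 3.22e-05, limma). Tap1, between Psmb9 and Psmb8, had 0.00 and -0.02 and did not pass. Of 9 measured genes of the region other than the proteasome pair, 6 were lower in KO cells in culture for either subset, 5 in spleen CD24+ cells and 6 in spleen CD172a+ cells.

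**Figure D1:**
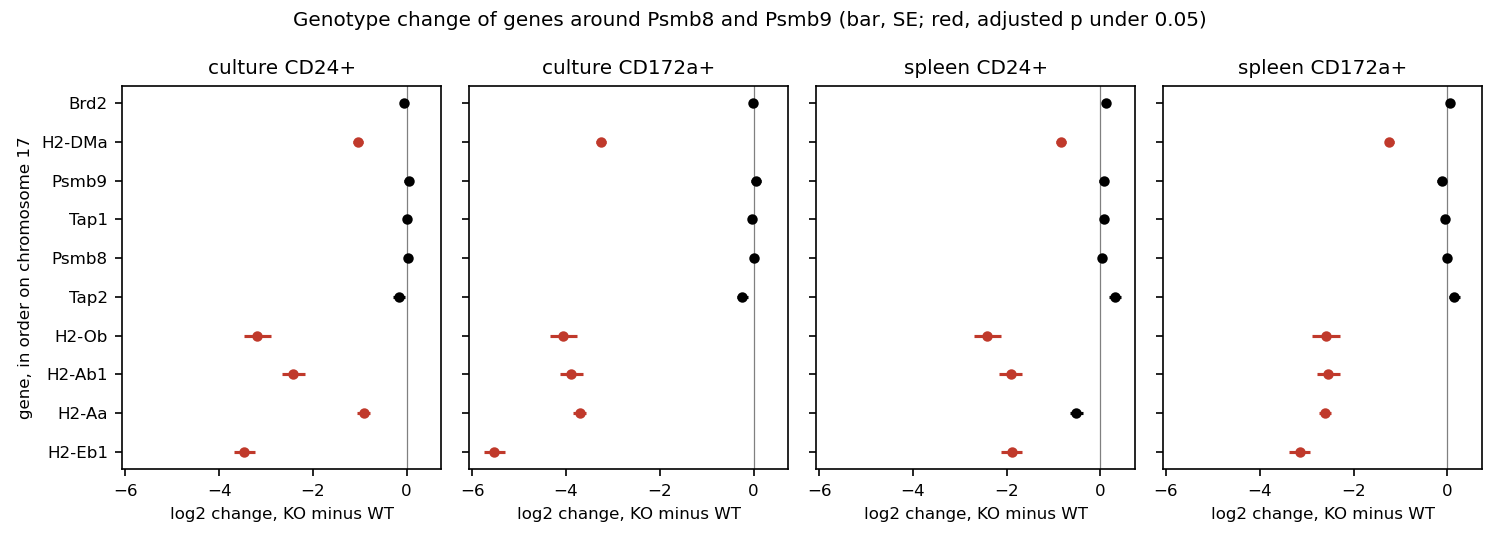
KO minus WT log2 change (x axis) of Psmb8, Psmb9 and measured genes around them, in their order on chromosome 17, for the 4 combinations of source and subset; bars are standard errors and red marks an adjusted p under 0.05. No point of Psmb9, Tap1, Psmb8 or Tap2 is red in any of the 4 panels, and H2-DMa, H2-Ob and H2-Ab1 lie to the left in each.

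The other immune genes gave like values. Psmb10, the immune partner of Psmb7, had KO minus WT values of 0.05, -0.05, 0.00 and -0.03 in cultured CD24+, cultured CD172a+, spleen CD24+ and spleen CD172a+ cells. Psme2, a subunit of the activator cap, stood at 6.54 and 6.62 in cultured CD24+ KO arrays, against 6.39 and 6.36 in WT arrays. These arrays did not overlap, but the change of 0.20 (95% interval -0.01 to 0.42) did not pass (adjusted p = 0.6775, limma). Such non-overlap was common: in these cells both KO arrays lay above both WT arrays for 20.4% of all genes, and below for 11.9%. Psme1, the cap partner of Psme2, had 0.12 in the same cells (adjusted p = 0.791, limma).

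The largest genotype value of any member rested on 1 array. Psmg4, a chaperone of core assembly, stood at 3.86 and 4.52 in cultured CD24+ KO arrays, against 3.90 and 3.50 in WT arrays, so that KO replicate 2 alone was high. Its change was 0.49 (adjusted p = 0.573, limma), and it passed only without KO replicate 1 (0.82, adjusted p = 0.0127, with 6.12% of all genes called). Psmd8, a 19S lid subunit, stood at 3.77 and 3.37 in cultured CD172a+ KO arrays, against 4.14 and 3.97 in WT arrays, a value of -0.49 (adjusted p = 0.664, limma) from arrays that did not overlap. Psmd11, another lid subunit, did not overlap either in cultured CD24+ cells (4.00 and 3.94 in KO arrays, against 3.77 and 3.68 in WT arrays), and its value of 0.25 did not pass (adjusted p = 0.467, limma). Over all genes, KO arrays lay wholly above WT arrays for 20.4% and wholly below for 11.9% in cultured CD24+ cells. In cultured CD172a+ cells these shares were 18.8% and 16.9%. Over both subsets Psmd8 passed only without the culture KO mouse of replicate 1 (-0.53, adjusted p = 0.00480, with 6.58% of all genes called). In spleen CD24+ cells, WT replicate 2 was the lowest of the 4 arrays for 45 of the 50 genes, and 42 of the 50 KO minus WT values there were above 0. In cultured CD24+ cells, KO replicate 1 was the highest of the 4 arrays for 42 of the 50 genes. These counts were not made over all genes, so a pattern of the members cannot be told from one of the whole array.

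Cultured activated cells carried more of the immune subunits than spleen cells. On median-centred levels, 5 of 5 immune genes were higher in culture in both subsets. In CD172a+ cells all 5 also passed on the deposited values and after quantile normalization over the 16 arrays, and in CD24+ cells 4 of 5 did, with Psme1 turning to -0.012 and -0.062 on those scales. Over all 50 members, 37 were higher and 7 lower in cultured CD24+ cells (88.0% called; background 76.6%, of which 47.1% higher and 29.5% lower), and 36 higher and 5 lower in cultured CD172a+ cells (82.0% called; background 78.9%, of which 49.4% higher and 29.5% lower). The called shares were close to those of all genes. The members' median change was 0.47 in CD24+ cells and 0.53 in CD172a+ cells, beside 0.13 and 0.15 over all genes.

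The split depended on the scale. On the deposited values the CD24+ split was 13 higher and 16 lower (all genes 13.8% and 65.3%), and that in CD172a+ cells 23 higher and 16 lower (16.6% and 60.2%), while the median of all genes was -0.34 and -0.28. After quantile normalization it was 27 higher and 13 lower in CD24+ cells (all genes 40.3% and 33.8%), and 33 higher and 11 lower in CD172a+ cells (43.0% and 32.6%). On all 3 scales, 13 members were higher (background 13.6%) and 7 lower (27.7%) in CD24+ cells, and 23 were higher (16.4%) and 5 lower (27.3%) in CD172a+ cells. The members named next as having risen or fallen passed on all 3 scales unless stated, and the sizes given are those on the centred scale. On the deposited values every such change stands 0.46 lower in CD24+ cells and 0.43 lower in CD172a+ cells.

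Psmb8, which brings the chymotrypsin-like site of the immunoproteasome, stood at 6.05, 6.06, 6.03 and 6.08 in cultured CD172a+ cells and at 4.86, 4.88, 4.90 and 4.84 in spleen CD172a+ cells. Each culture array was above each spleen array. The change was 1.19 ± 0.05 (SE, adjusted p = 9.73e-10, limma), or 2.28-fold, and it was 0.76 after quantile normalization. In CD24+ cells Psmb8 stood at 6.10, 6.10, 6.06 and 6.08 in culture and at 5.34, 5.38, 5.45 and 5.22 in spleen, a change of 0.74 ± 0.05 (adjusted p = 8.30e-08, limma) and of 0.25 after quantile normalization. The 8 culture arrays of both subsets lay within 6.03 to 6.10, while the spleen subsets stood apart. Non-overlap between the sources was common. Culture arrays lay wholly above spleen arrays for 43.2% of all genes in CD24+ cells and 46.2% in CD172a+ cells. They lay wholly below for 26.6% and 27.6%.

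Psmb9, the immune partner of Psmb6, rose by 0.63 ± 0.07 in CD24+ cells (0.17 on the deposited values and 0.31 after quantile normalization) and by 0.91 ± 0.07 in CD172a+ cells (0.48 and 0.55). Psmb10 rose by 0.78 ± 0.06 in CD24+ cells (0.32 and 0.31 on those scales) and by 0.89 ± 0.06 in CD172a+ cells (0.47 and 0.45). The size of the immune changes thus depended on the scale. Psme2 showed the largest immune change: it stood at 6.81, 6.70, 6.80 and 6.77 in cultured CD172a+ cells, against 5.17, 5.35, 5.25 and 5.29 in spleen. That is 1.50 ± 0.07 (adjusted p = 1.79e-09, limma), or 2.84-fold, with no overlap, and in CD24+ cells it was 0.90 ± 0.07. After quantile normalization the changes of Psme2 were 0.52 in CD24+ and 1.20 in CD172a+ cells. Psme1 rose by 0.90 ± 0.05 in CD172a+ cells (0.46 after quantile normalization) and had 0.45 ± 0.05 in CD24+ cells on the centred scale alone. A second probe set that names Psme2 together with its near-identical copy Psme2b was left out of the members, and gave 0.94 in CD24+ cells and 1.15 in CD172a+ cells.

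**Figure D2:**
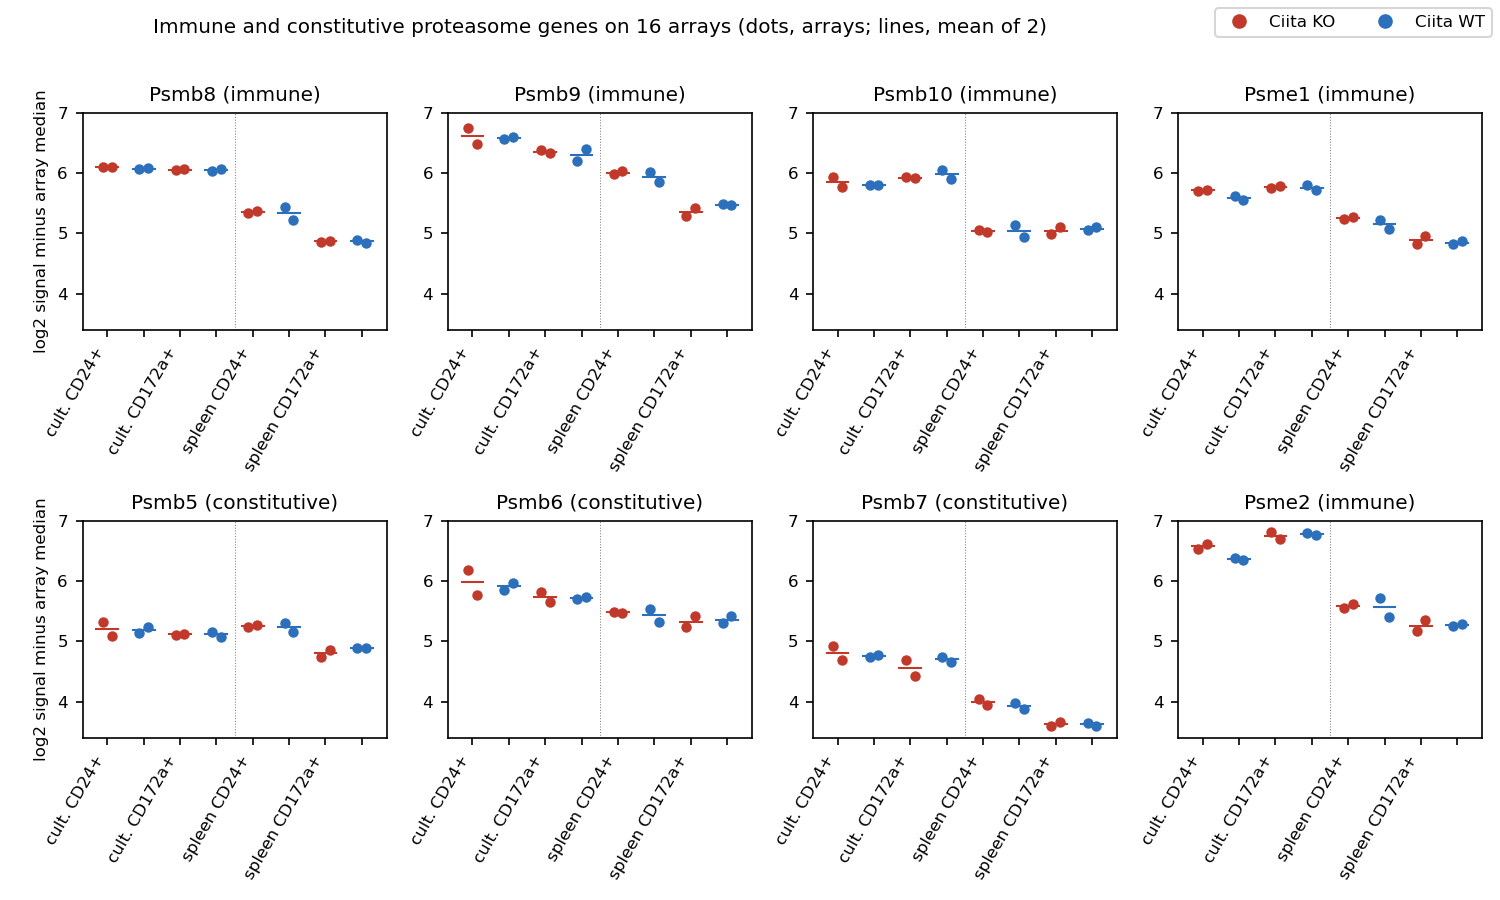
Level (log2 signal minus the median of the array, y axis) of the 5 immune genes and the 3 constitutive catalytic genes in the 8 groups, each dot 1 array and each line the mean of 2, with KO left of WT. Psmb8 runs from 6.03 to 6.10 in the 8 culture arrays and from 4.84 to 5.45 in the 8 spleen arrays, and Psmb5 stays between 4.75 and 5.33 throughout. No KO minus WT change of these genes passed, though the KO dots of Psme2 lie above its WT dots in cultured CD24+ cells.

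The constitutive catalytic subunits did not move as one. Psmb5, the subunit that Psmb8 replaces, stood at 5.33, 5.10, 5.15 and 5.24 in cultured CD24+ cells, against 5.24, 5.27, 5.30 and 5.16 in spleen. The arrays overlapped and the change of -0.04 did not pass on the centred scale, but it passed as lower on the deposited values (-0.50) and after quantile normalization (-0.57). In CD172a+ cells Psmb5 had 0.27 ± 0.06 on that scale, but -0.15 on the deposited values and -0.19 after quantile normalization. Psmb6 had 0.49 in CD24+ cells on the centred scale, but 0.028 on the deposited values and 0.0025 after quantile normalization, which did not pass. In CD172a+ cells it had 0.38 on the centred scale, -0.041 on the deposited values and -0.035 after quantile normalization. Psmb7, the subunit that Psmb10 replaces, rose by 0.82 ± 0.07 and 1.01 ± 0.07 (0.38 and 0.67 after quantile normalization).

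The ratio of an immune gene to its partner within an array is free of the centring, though not of quantile normalization. For Psmb8 against Psmb5, with the mean of the spleen CD172a+ arrays set to 0 on the log2 scale, cultured CD24+ cells stood at 0.75, 0.98, 0.89 and 0.81, and cultured CD172a+ cells at 0.92, 0.92, 0.84 and 0.98. The spleen arrays ran from -0.07 to 0.12 in both subsets. The culture minus spleen step was thus 0.78 in CD24+ and 0.92 in CD172a+ cells (0.82 and 0.96 after quantile normalization), and no arrays overlapped. For Psmb9 against Psmb6 the step was 0.14 and 0.52 with no overlap (0.30 and 0.58 after quantile normalization), and the spleen CD24+ arrays (0.41 to 0.48) already stood above the spleen CD172a+ arrays (-0.06 to 0.11). For Psmb10 against Psmb7 the step was -0.04 and -0.11 (-0.07 and -0.22 after quantile normalization), and the arrays overlapped. That ratio separated the subsets instead: it was -0.42 to -0.35 in cultured CD24+ arrays and -0.19 to 0.06 in cultured CD172a+ arrays, and -0.41 to -0.27 in spleen CD24+ arrays and -0.04 to 0.07 in spleen CD172a+ arrays. These ratios are descriptions with no test.

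**Figure D3:**
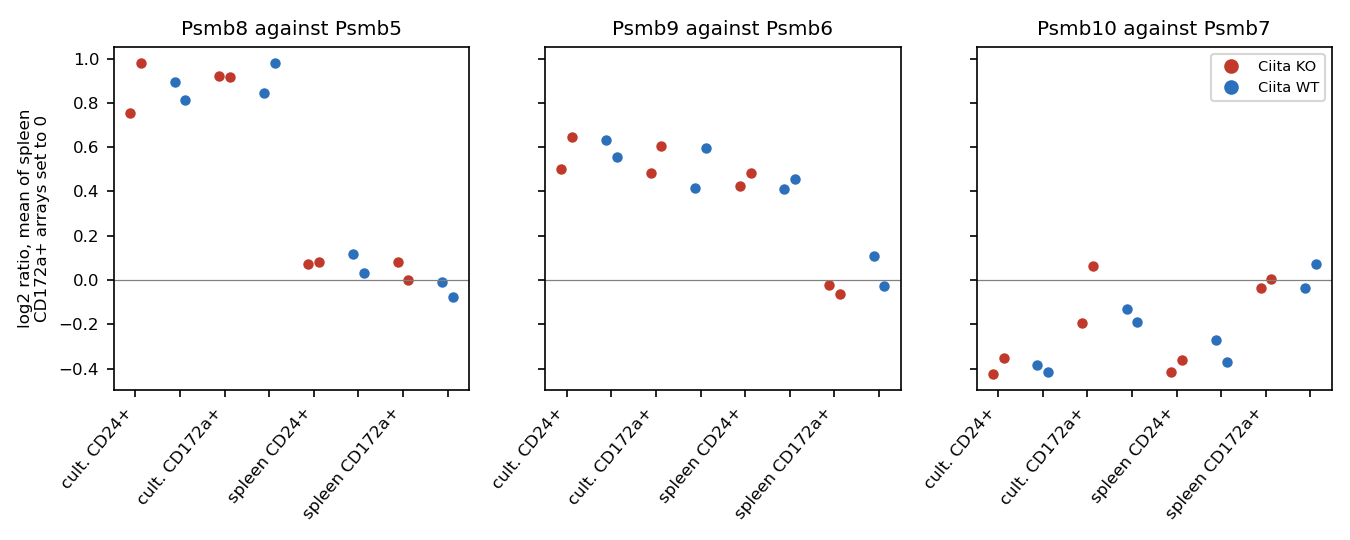
Log2 ratio of each immune catalytic gene to its constitutive partner (y axis), 1 dot per array, with the mean of the 4 spleen CD172a+ arrays set to 0. Psmb8 against Psmb5 separates culture (0.75 to 0.98) from spleen (-0.07 to 0.12), Psmb9 against Psmb6 puts spleen CD24+ arrays near the culture arrays, and Psmb10 against Psmb7 is lower in CD24+ than in CD172a+ arrays in both sources.

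Among the alpha ring subunits, 4 of 8 rose in each subset on all scales: Psma4, Psma5, Psma6 and Psma7. Psma4 stood at 5.73, 5.43, 5.61 and 5.63 in cultured CD24+ cells and at 4.14, 4.20, 4.16 and 3.76 in spleen, which do not overlap. Its change was 1.53 ± 0.09 (adjusted p = 2.45e-08, limma), and 1.44 ± 0.09 in CD172a+ cells. Psma8, an alpha subunit of the testis proteasome, was dim in all groups. In culture its deposited log2 values of 5.34 to 5.62 each lay below the lower quartile of the same array, against 6.52 to 7.04 in spleen, so its call as lower is given with no size. Of the 4 non-catalytic beta subunits, Psmb4 alone rose on all scales, in CD172a+ cells (0.72 ± 0.06, and 0.30 after quantile normalization). The thymic subunit Psmb11 was at -0.51 to -0.03 in all 16 arrays.

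In the 19S cap, Psmd7, the partner of the deubiquitinase Psmd14, had the largest change of any subunit. It stood at 4.70, 4.50, 4.62 and 4.58 in cultured CD24+ cells and at 2.84, 2.94, 2.94 and 2.74 in spleen. In CD172a+ cells it stood at 4.17, 4.09, 4.20 and 4.12 in culture and at 2.30, 2.40, 2.25 and 2.14 in spleen. Culture and spleen arrays were more than a unit apart in both. The changes were 1.74 ± 0.06 and 1.87 ± 0.06 (adjusted p = 2.87e-10 and 1.06e-10, limma). Psmd14 itself rose by 0.66 ± 0.09 and 0.72 ± 0.09 (0.26 and 0.43 after quantile normalization). Psmd8 differed between subsets: it had 0.69 ± 0.12 in CD24+ cells on the centred scale, did not pass there on the deposited values (0.23) and passed after quantile normalization (0.30). In CD172a+ cells Psmd8 had -0.02 on the centred scale, which did not pass, and passed as lower on the deposited values (-0.45) and after quantile normalization (-0.32). Of the 6 ATPases, which unfold the substrate, Psmc4 rose in both subsets (0.65 ± 0.06 and 0.87 ± 0.06, and 0.39 and 0.71 after quantile normalization), and Psmc2 and Psmc3 in CD172a+ cells.

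Of the remaining regulators, Psmf1, the inhibitor PI31, rose by 1.29 ± 0.09 and 1.09 ± 0.09. Psme3, which forms the nuclear activator cap, fell by 0.24 ± 0.07 in CD24+ cells (-0.53 after quantile normalization). Psme4, another activator, had 0.49 ± 0.06 in CD24+ cells on the centred scale. It did not pass there on the deposited values (0.026) and passed as higher after quantile normalization (0.57). In CD172a+ cells it had 0.05 on the centred scale, which did not pass. There it passed as lower on the deposited values (-0.37) and as higher after quantile normalization (0.20).

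The assembly chaperones went both ways. Psmg1 and Psmg2 form a pair that builds the alpha ring. Psmg1 stood at 0.35, 0.27, 0.46 and 0.37 in cultured CD24+ cells and at 2.18, 2.17, 2.35 and 2.03 in spleen, and Psmg2 at -0.09, -0.53, -0.29 and -0.26 in culture and at 1.61, 1.58, 1.77 and 1.47 in spleen. Both were lower in each culture array than in any spleen array. Psmg1 fell by 1.82 ± 0.08 in CD24+ cells and 1.47 ± 0.08 in CD172a+ cells, and Psmg2 fell by 1.90 ± 0.09 and 1.83 ± 0.09 (largest adjusted p = 3.87e-09, limma). Psmd5, a chaperone of the 19S base, fell by 0.83 and 0.72.

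Psmg3 and Psmg4 form a second pair, which did not move together. Psmg4 stood at 4.95, 4.95, 4.99 and 4.83 in cultured CD172a+ cells and at 2.63, 2.92, 2.88 and 2.92 in spleen, a rise of 2.09 ± 0.13 or 4.27-fold (adjusted p = 3.12e-08, limma). In CD24+ cells its change was 0.47 ± 0.13 on the centred scale and did not pass on either other scale. Psmg3 fell by 0.67 ± 0.09 in CD24+ cells, and in CD172a+ cells it had 0.31 ± 0.09 on the centred scale, -0.12 on the deposited values, which did not pass, and 0.50 after quantile normalization, which passed as higher. Psmd10 (gankyrin), a 19S chaperone, rose by 0.75 ± 0.08 in CD172a+ cells.

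**Figure D4:**
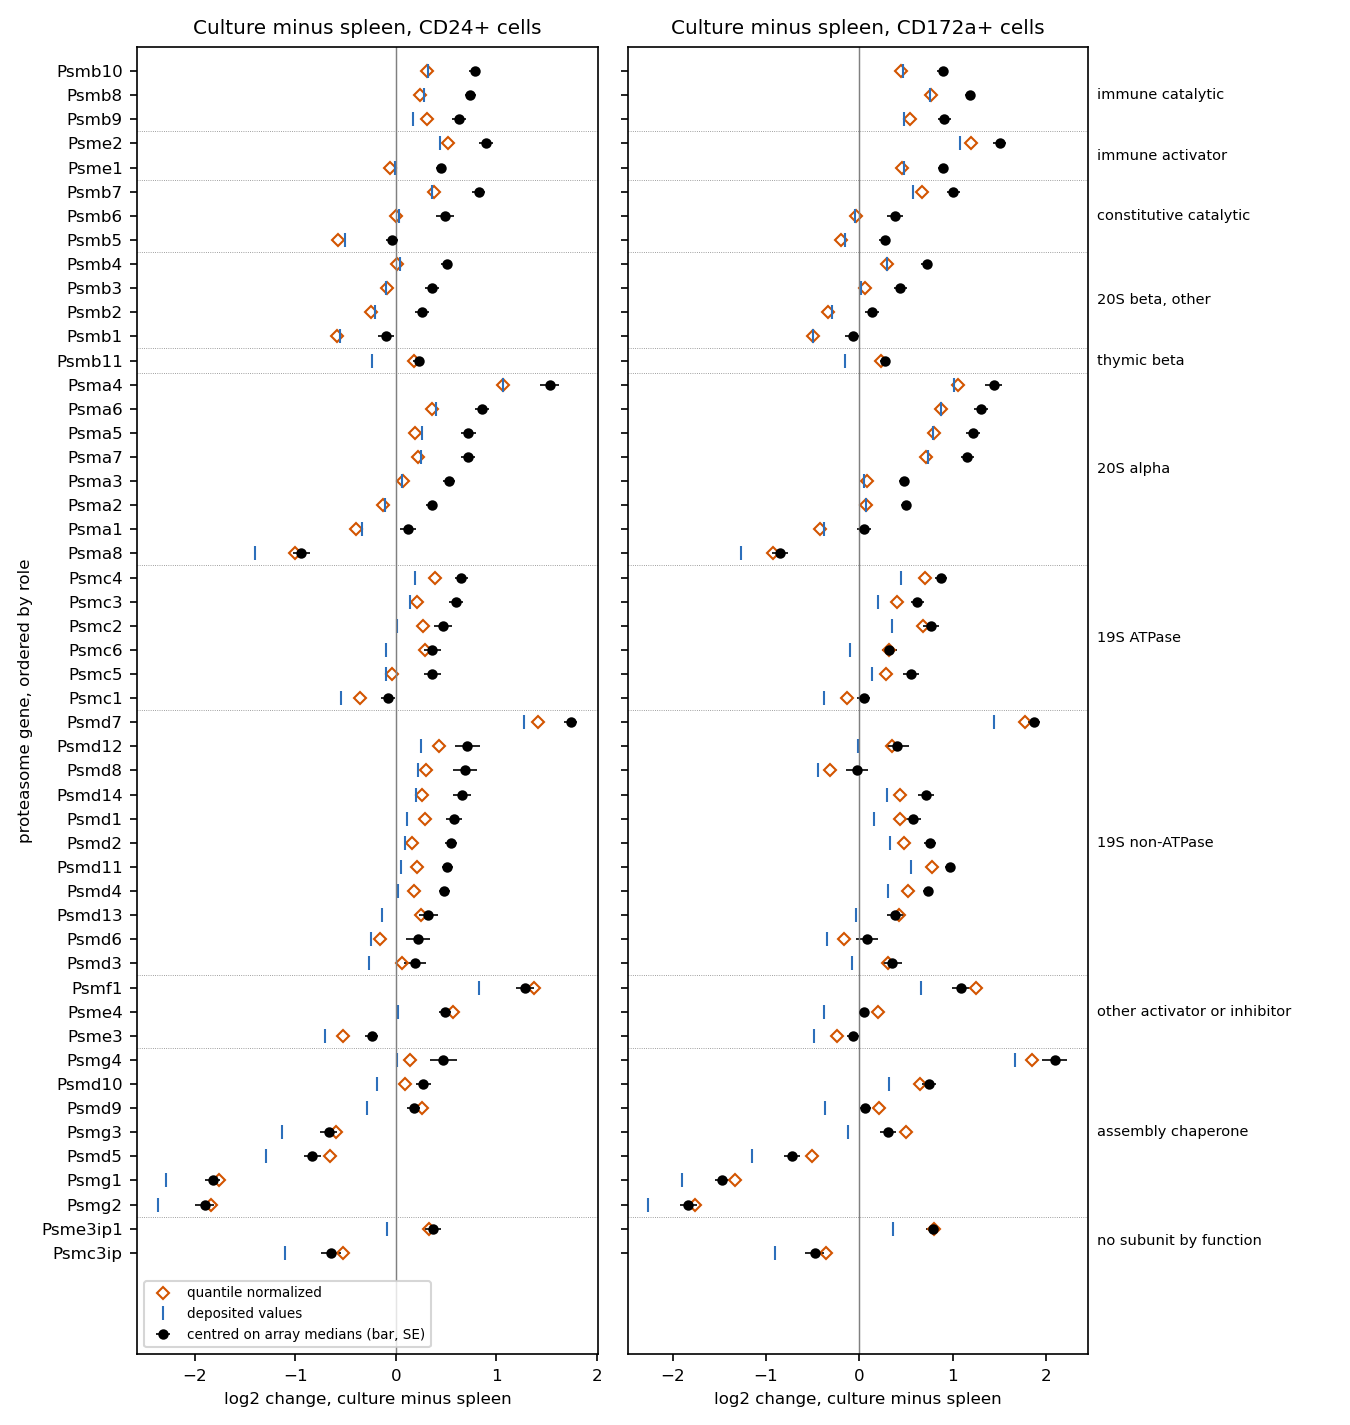
Culture minus spleen log2 change (x axis) of the 50 proteasome genes ordered by role, in CD24+ cells (left) and CD172a+ cells (right), on median-centred levels (dots with standard errors), quantile-normalized values (diamonds) and deposited values (ticks). Psmd7, Psma4 and Psmf1 stay right of 0 and Psmg1 and Psmg2 left of 0 on every scale. Other members change side, among them Psme1 in CD24+ cells and Psmb5 and Psmb6 in CD172a+ cells.

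Proteasome partners, class I peptide supply genes, interferon response genes and ubiquitin pathway genes were read from 4 further lists, counted on all 3 scales. On those, 13.6% of all genes were higher and 27.7% lower in CD24+ cells, and 16.4% and 27.3% in CD172a+ cells. Of 19 measured partners of assembly and delivery, 6 rose and 2 fell in cultured CD24+ cells, and 5 rose and 4 fell in cultured CD172a+ cells. Pomp, the chaperone that completes the core, rose by 0.60 and 0.76, and Nfe2l1, the factor that drives proteasome genes when the proteasome is limiting, by 1.35 and 2.02. Vcp, the segregase that pulls substrates out of complexes, rose by 0.93 and 1.73, and its cofactor Nploc4 by 0.76 and 1.16. Nfe2l2, the antioxidant factor, rose by 0.76 in CD24+ cells and fell by 0.76 in CD172a+ cells. Of 10 measured genes of class I peptide supply, 5 rose in CD24+ cells, and 6 rose and 1 (Calr) fell in CD172a+ cells: Tap1 rose by 1.33 and 1.79 and Nlrc5, the class I transactivator, by 1.84 and 2.68. Of 16 measured interferon response genes, 14 rose in either subset, and all 4 that were measured of 10 ubiquitin and ubiquitin-like pathway genes did (Uba6, Ube2l6, Uba7 and Ubd). Ubd (FAT10, a tag that sends proteins to the proteasome) rose by 3.33 and 5.48.

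In spleen, many proteasome genes were higher in CD24+ than in CD172a+ cells. Of the 50 members, 20 were higher (background 13.8%) and 1 was lower (14.3%), 42.0% in all beside 28.0% of all genes. The same 20 and 1 passed on all 3 scales (background 13.4% higher and 13.2% lower). The median difference was 0.16, beside 0.01 over all genes. Psmb9 stood at 5.99, 6.04, 6.02 and 5.86 in CD24+ cells and at 5.29, 5.43, 5.49 and 5.47 in CD172a+ cells, with no overlap. The difference was 0.56 ± 0.07 (adjusted p = 6.86e-05, limma). Psmb8 was higher by 0.48 ± 0.05 (adjusted p = 1.98e-05, limma), from the levels given above, which do not overlap. Over all genes, spleen CD24+ arrays lay wholly above spleen CD172a+ arrays for 16.2% and wholly below for 16.1%. Psme1 was higher by 0.34 ± 0.05 and Psme2 by 0.31 ± 0.07. The left-out probe set that names Psme2 together with Psme2b gave only 0.01 for this difference. No alternative setting used that probe set in place of the one taken for Psme2. Psmb10 did not pass (-0.02 ± 0.06, 95% interval -0.15 to 0.11).

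Of the other members, Psmg3 had the largest spleen difference. It stood at 2.35, 2.28, 2.44 and 2.15 in CD24+ cells and at 1.38, 1.57, 1.54 and 1.55 in CD172a+ cells, a difference of 0.80 ± 0.09 (adjusted p = 1.74e-05, limma) with no overlap. Its partner Psmg4 was higher by 0.63 ± 0.13 and Psmd7 by 0.59 ± 0.06. Of the alpha subunits 5 of 8 were higher, led by Psma5 (0.47 ± 0.08), and of the constitutive catalytic subunits Psmb5 (0.40 ± 0.06) and Psmb7 (0.34 ± 0.07). Among those alpha subunits, the dim Psma8 passed in 9 of 17 settings, Psma6 in 10 and Psma4 in 13. Psme4 was lower, at -0.20 ± 0.06 (adjusted p = 0.0187, limma), and did not pass without KO CD172a+ replicate 1, WT CD172a+ replicate 1, KO CD24+ replicate 2 or WT CD24+ replicate 1. Psmb5, Psmb7, Psmb8, Psmb9, Psme1, Psme2, Psmd7, Psmg3 and Psmg4 were among 15 members that passed in all 17 settings, each single array left out among them. Without WT CD24+ replicate 2, the array that was low for most members, 26 were higher and 1 lower, beside 12.9% and 13.0% of all genes.

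In culture the subsets differed in both directions. There, 11 members were higher in CD24+ cells (background 11.6%) and 8 lower (12.3%), 38.0% in all beside 23.8% of all genes. On all 3 scales 8 were higher (10.4%) and 8 lower (12.2%). The median difference was 0.03, beside -0.01 over all genes. The total of 19 fell to 11 without WT CD172a+ replicate 1, to 12 without KO CD172a+ replicate 2 and to 10 when culture arrays were fitted alone. Psmg4 stood at 3.86, 4.52, 3.90 and 3.50 in CD24+ cells and at 4.95, 4.95, 4.99 and 4.83 in CD172a+ cells, a difference of -0.99 ± 0.13 (adjusted p = 1.91e-04, limma) with no overlap. Over all genes, cultured CD24+ arrays lay wholly above cultured CD172a+ arrays for 10.5% and wholly below for 10.5%. Psmd8 stood at 4.65, 4.04, 4.39 and 4.45 in CD24+ cells and at 3.77, 3.37, 4.14 and 3.97 in CD172a+ cells. Its 2 ranges overlapped narrowly, and the difference was 0.57 ± 0.12 (adjusted p = 0.00378, limma). Psmd12, a scaffold subunit of the lid, was higher by 0.70 ± 0.12, Psmd7 by 0.45 ± 0.06 and Psma4 by 0.42 ± 0.09.

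Of the immune genes, Psmb9 was higher in cultured CD24+ cells (0.28 ± 0.07, adjusted p = 0.0123, limma) and Psme2 was lower (-0.29 ± 0.07, adjusted p = 0.00871, limma). Psmb8 had 0.03 ± 0.05, Psme1 -0.11 ± 0.05 and Psmb10 -0.13 ± 0.06, and none of them passed on the centred scale. After quantile normalization Psmb10 and Psme1 passed as lower (-0.18 each). Psmb9 no longer passed with culture arrays alone or without WT CD172a+ replicate 1.

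The subset difference itself changed between sources. Taking CD24+ minus CD172a+ within each mouse and then culture minus spleen, 16 members were lower (background 13.6%) and 2 higher (14.7%) in limma with Benjamini-Hochberg adjustment, 36.0% in all beside 28.2% of all genes. On all 3 scales 15 were lower (13.3%) and 2 higher (13.0%). Of the 5 immune genes, 4 were among the lower: Psme2 at -0.61 ± 0.10, Psme1 at -0.45 ± 0.08, Psmb8 at -0.45 ± 0.07 and Psmb9 at -0.28 ± 0.09, the last not passing after quantile normalization and passing in 7 of 14 settings in all. The other 3 passed in all 14. All 4 were higher in CD24+ than in CD172a+ cells in spleen. The left-out probe set of Psme2 and Psme2b had subset differences of -0.20 in culture and 0.01 in spleen. The probe set taken for Psme2 had -0.29 and 0.31, so the size of its shift depended on the probe set. Psmg4 had the largest value, -1.62 ± 0.16 (adjusted p = 7.36e-05, limma), since its order turned between sources, and Psmg3 had -0.97 ± 0.11 (adjusted p = 2.54e-04, limma). The higher members were Psmd8 (0.71 ± 0.10) and Psme4 (0.44 ± 0.08). For Psme4 the order turned the other way, with 0.23 in culture and -0.20 in spleen. Cultured and spleen cells of both subsets also differed in their own markers, those of CD172a+ cells as given above. In CD24+ cells, 7 of 9 genes of the CD24+ type were lower and 1 was higher in culture (all genes 29.5% and 47.1%). The change of the subset difference was itself lower for 8 of these 9 genes and higher for 1. It was higher for 8 of 8 genes of the CD172a+ type. The part of such marker changes in the values of the members was not tested.

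**Figure D5:**
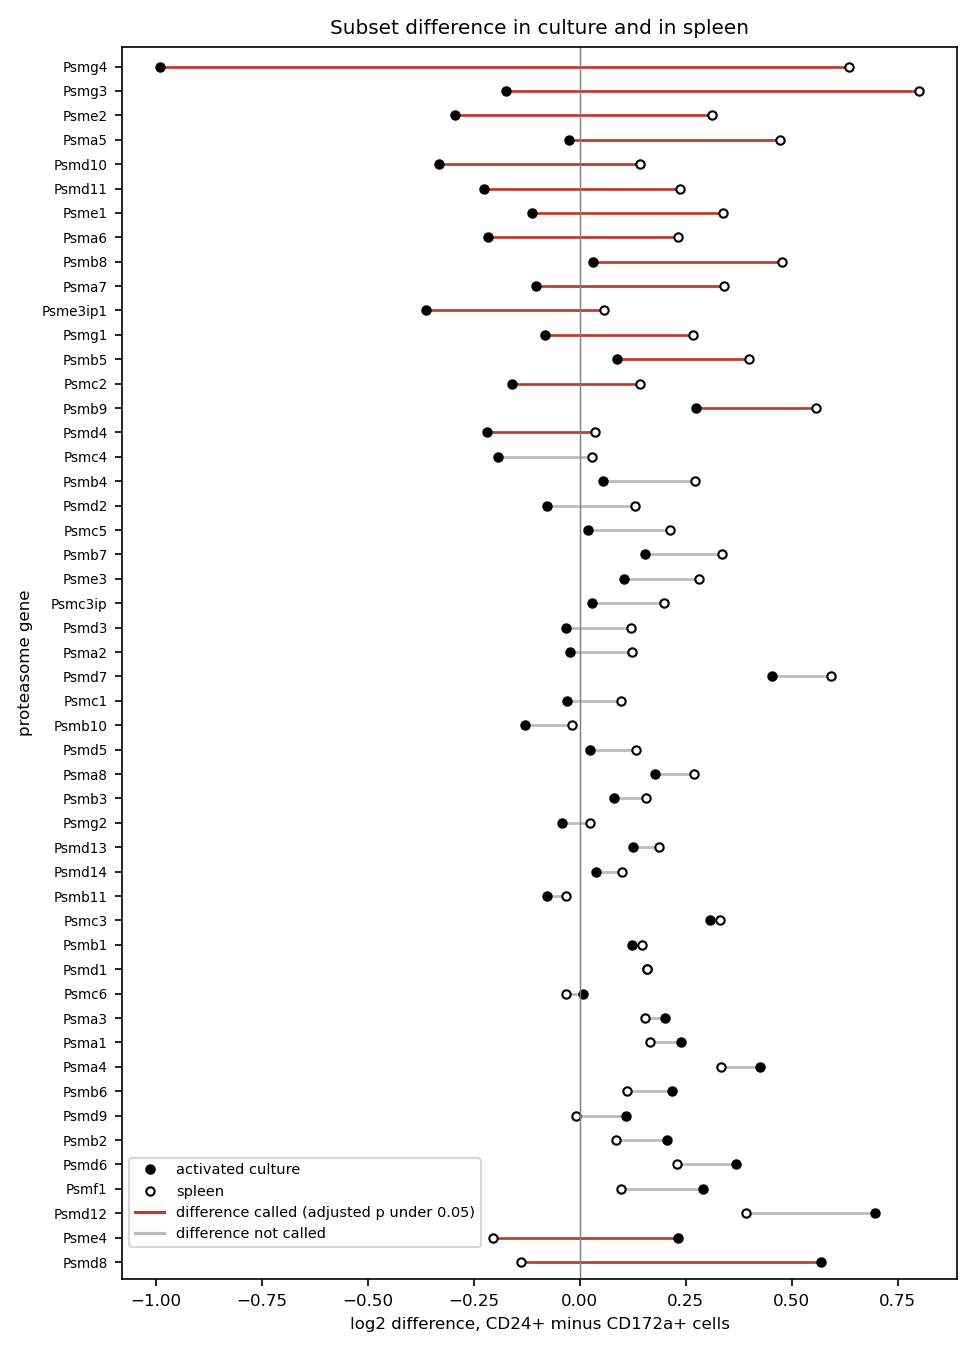
CD24+ minus CD172a+ log2 difference (x axis) of each proteasome gene in activated culture (filled) and in spleen (open), ordered by the change between them, with red lines where that change had an adjusted p under 0.05. Psmg4 lies at -0.99 in culture and at 0.63 in spleen, the 4 immune genes Psme2, Psme1, Psmb8 and Psmb9 shift left, and Psmd8 and Psme4 at the bottom shift right.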

How the data were processed

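The authors deposited 1 log2 signal per probe set and array (a scale inferred from its range). How they corrected background, normalized and summarized is not stated in any source used here. Per the labels' protocols, RNA was amplified with the Ovation Pico WTA system. Of 30177 probe sets, 21789 had 1 gene symbol in the platform annotation (21698 updated through Entrez IDs), 1621 had several and 6767 none. The probe set with the highest mean stood for each of 19938 genes. Each array was centred on its median over these genes. The protein sequences planned for comparing subunits were not used here.

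limma 3.58.1 (R 4.3.3) fitted 1 mean per group over 16 arrays, with lmFit and eBayes. Genotype was also tested over 8 mice (mean of both arrays), and the change of the subset difference over 8 mice (difference of both arrays). P-values were 2-sided and Benjamini-Hochberg adjusted over all genes, with a threshold of 0.05. On simulated data of 19938 genes with independent noise, log2 changes of 0.5, 1, 2 and 4 were given to 50 genes each and the rest were left unchanged. At 0.5 the fit recovered 56% for genotype in cultured CD24+ cells and 90% for culture against spleen in CD24+ cells. The data differ from that setting, since 76.6% of genes were called for culture against spleen there, so these shares are a guide only. Mouse numbers in the labels pair the 2 subsets of an animal; deviations of the paired arrays correlated at 0.20, -0.10, 0.39 and 0.20. The 2 arrays of a group come from separate mice, and p-values measure the spread between them.

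The members, roles and lists were chosen with earlier results of these data known. The genes named are the immune and constitutive catalytic genes throughout, and otherwise members that passed, by size, or the largest of a role. Alternatives were deposited values, quantile normalization, dim genes left out, the mean of a gene's probe sets, all probe sets, an intensity trend, arrays of 1 source, a mouse or replicate block, and each array left out; the mouse as a random block was added after seeing the data. For 5 members with several probe sets the other values were computed too (for Psmc1, culture minus spleen in CD172a+ cells was 0.05, and 0.23 by its other probe set). Figures were drawn with matplotlib 3.10.9.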

Additional observations from a re-analysis of the deposited data

Results flagged for a closer look

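The genes below stood out because the CD24+ minus CD172a+ difference was not the same in activated culture and in spleen, by a test of the difference itself (limma on the per-mouse differences, adjusted p under 0.05 over all genes). Values are culture minus spleen of that difference, on the log2 scale. It was lower in culture for the chaperones Psmg4 (-1.62), Psmg3 (-0.97), Psmd10 (-0.47) and Psmg1 (-0.35). It was lower for the immune genes Psme2 (-0.61), Psme1 (-0.45), Psmb8 (-0.45) and Psmb9 (-0.28). For Psme2 the left-out probe set shared with Psme2b had a smaller shift, from 0.01 in spleen to -0.20 in culture. Core subunits Psma5 (-0.50), Psma6 (-0.45), Psma7 (-0.44) and Psmb5 (-0.31) followed the same direction. So did the cap subunits Psmd11 (-0.46), Psmc2 (-0.30) and Psmd4 (-0.25), and Psme3ip1 (-0.42), which is not a subunit. It was higher in culture for Psmd8 (0.71) and Psme4 (0.44). Some of these calls were lost under another setting or without 1 mouse: of 14 settings, Psmd4 passed in 6, Psmc2, Psmg1 and Psmb9 in 7, Psmb5 in 9 and Psme3ip1 in 12, and the other 12 genes passed in all 14. Groups of 2 arrays are too small for a search for single outlying arrays.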

How the results depend on the processing

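Leaving out 1 array or mouse at a time gave 0 to 1 members called for genotype in cultured CD24+ cells and in culture mice, and 0 in the other genotype comparisons. It gave 15 to 27 members for the spleen subset difference, 11 to 23 for the culture subset difference, 12 to 20 for the change of that difference, 43 to 47 for culture against spleen in CD24+ cells and 41 throughout in CD172a+ cells. The culture subset count was 10 with culture arrays alone, where fewer arrays share the spread. On deposited values, 29 members passed for culture against spleen in CD24+ cells, against 44 on centred values. Of the immune and constitutive catalytic genes called on the centred scale, some reversed sign on deposited values and after quantile normalization. These were Psme1 in CD24+ cells (-0.0119 and -0.0625) and, in CD172a+ cells, Psmb5 (-0.1539 and -0.1943) and Psmb6 (-0.0411 and -0.0350). Only Psmb5 passed as lower there, and Psme1 and Psmb6 were near 0 and not called. In CD24+ cells Psma2, Psmb2, Psmb3 and Psmc5 also reversed sign on both scales. Deposited values differ from centred ones by a constant, 0.4614 in CD24+ and 0.4255 in CD172a+ cells. The cause of the reversals after quantile normalization was not tested. With the mouse as a replicate block, 22 members were called for the spleen subset difference and 18 for that in culture, and with the mouse as a random block, chosen after seeing the data, 22 and 20. A block by replicate number, which KO and WT groups share in name only, left 0 members called for genotype, 43 for culture against spleen in CD24+ cells and 41 in CD172a+ cells. For the 8 immune and constitutive catalytic genes, 1116 of 1216 values under an alternative kept their direction and side of the threshold, 16 lost the call, 8 gained it, 70 uncalled values changed sign and 6 reversed. With 2 arrays a group, changes near 0.5 on the log2 scale can be missed.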
